A study of Mus musculus with 25 samples.

Results

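Genes of blood vessel walls were examined in the CA1 region of the hippocampus of mice that had or had not been handled as pups. The 31 genes were a list of markers of endothelial cells and of mural cells, the pericytes and smooth muscle cells that wrap the endothelium. A gene was measured where at least 1 probe set of the array is annotated to it alone, and its brightest probe set, by mean signal over all mice, stood for it. By this rule 29 of the 31 genes were measured, with 52 probe sets, out of 18193 genes and 45037 probe sets in all. The 29 comprised 20 endothelial genes, 6 pericyte genes and 3 smooth muscle genes. Ly6a and Ly6c1, a pair of endothelial surface genes, had no probe set of their own under the annotation used here. Ly6c1 shared 1 probe set with Ly6c2, which differed by -0.02 (log2, standard error 0.08, adjusted p = 0.917) between handled and non-handled mice.

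The mice were females of the inbred Balb c/J strain. The 11 handled mice were taken from their mothers for 15 min each morning on postnatal days 1 to 14, and the 14 non-handled mice were left with theirs. All were tested for anxiety-related behavior at 8 weeks of age before the CA1 was microdissected. RNA was extracted with RNA/DNA columns in 7 handled and 10 non-handled mice and with Trizol in 4 handled and 4 non-handled mice, then amplified in a double round. Each mouse had its own Affymetrix Mouse 430_2.0 array, and the arrays were run side by side. The extraction method was read from a label that gives it by position in the list of samples. Handling was given by litter and litters gave more than 1 mouse, but which litter a mouse came from is not given in the sources used here. The p-values take the mice as independent, do not carry the spread between litters and can be too small.

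Brain endothelium forms the blood-brain barrier: tight junctions seal the cells to each other, and transporters move glucose, hormones and organic anions across them while pumps return foreign compounds to the blood. Vascular endothelial growth factor and the angiopoietins act on receptor tyrosine kinases of the endothelium, which control vessel growth and stability. Pericytes share a basement membrane with the endothelium of capillaries, and smooth muscle cells ring the arterioles and set their diameter. CA1 samples hold vessels alongside neurons and glia. For each gene, fewer vascular cells, less RNA per vascular cell and a difference in signal from other cells cannot be told apart.

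The deposited values were MAS 5.0 signal, a linear intensity, tested on the log2 scale with extraction method held constant. A gene is said to have risen or fallen where limma's Benjamini-Hochberg adjusted p over the 45037 probe sets was under 0.05. Array means of signal ran from 748 to 834 in handled and 737 to 910 in non-handled mice, and the correlation of log2 signal between arrays ran from 0.806 to 0.919. The spread of log2 signal across probe sets was wider in handled mice (SD 2.81 ± 0.13, n = 11) than in non-handled mice (2.63 ± 0.12, n = 14). Over all probe sets 3.58% rose and 7.93% fell, with a median difference of -0.15, and 22 of the 29 lead probe sets lay in the upper 50% of mean signal. The 7 in the lower 50% were those of Pecam1, Cdh5, Tie1, Vwf, Anpep, Tagln and Myh11.

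In handled mice 5 of the 29 vascular genes fell and 0 rose. All 5 are endothelial: the tight junction gene Cldn5, the adhesion gene Esam, the receptor genes Kdr and Tie1 and the transcription factor gene Foxq1. The other 15 endothelial genes, the 6 pericyte genes and the 3 smooth muscle genes did not pass the test. By the brightest probe set of each gene, 4.51% of all 18193 genes rose and 9.79% fell, and in the upper 50% of mean signal 7.08% rose and 10.4% fell. The median difference was -0.09 over the 29 genes and -0.12 over the brightest probe sets of all genes, and 19 of the 29 differences were negative, beside 64.3% of all probe sets. With no adjustment 10 of the 29 genes had p under 0.05, beside 12561 of the 45037 probe sets.

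**Figure D1:**
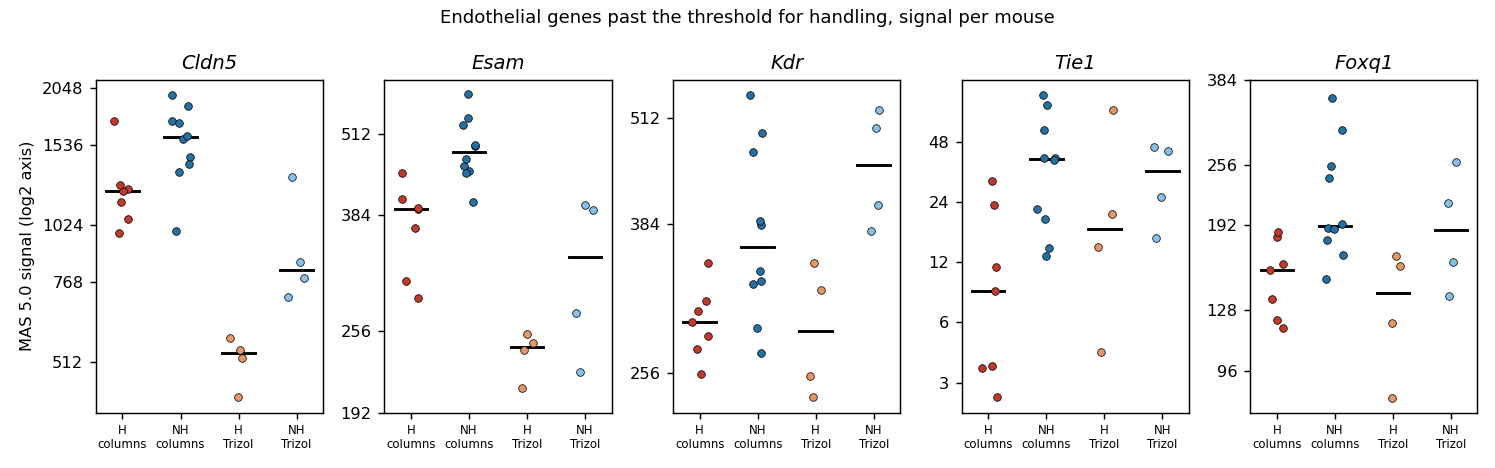
MAS 5.0 signal (vertical, log2 axis) of the 5 endothelial genes that fell with handling, 1 point per mouse and a line at each group's median, for handled (H) and non-handled (NH) mice with RNA from columns or Trizol. The handled median was below the non-handled median in each panel under both extraction methods, and only Cldn5 and Kdr with Trizol had groups that did not overlap, a separation shown by 3.47% of all genes in that direction.

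Cldn5 encodes claudin-5, the main sealing protein of the tight junctions of brain endothelium. With columns, its signal lay between 986 and 1738 with a median of 1218 in handled mice, against 994 to 1980 with a median of 1597 in non-handled mice. With Trizol, it was 429, 525, 546 and 579 in handled mice, against 712, 783, 851 and 1307 in non-handled mice. In the Trizol group every handled mouse was below every non-handled mouse, as for 3.47% of all genes by the brightest probe set, and in the column group 6 of 7 handled mice were below the non-handled median, the exception being mouse H117 with the group's highest signal. Over all mice Cldn5 fell by 0.49 in log2 signal (standard error 0.11, adjusted p = 0.00549), a fold of 0.714. Two-sided exact permutation of handling within extraction method gave p = 0.000614 over all mice, 0.0260 with columns and 0.0286 with Trizol, the last being the smallest that 4 mice against 4 allow. These exact p-values were computed only for the 5 genes that had passed limma's test and are not adjusted.

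Esam encodes an adhesion molecule of endothelial cell contacts. With columns, its signal lay between 287 and 446 with a median of 393 in handled mice, against 403 to 588 with a median of 480 in non-handled mice. With Trizol, it was 209, 239, 245 and 253 in handled mice, against 222, 273, 391 and 398 in non-handled mice. All 11 handled mice were below the non-handled median of their extraction method, and the groups overlapped under both methods. All 11 were also below it for the pericyte gene Cspg4, which did not pass the test. The share of all genes with such counts below the median was not computed. The difference was -0.40 (standard error 0.11, adjusted p = 0.0140) over all mice, -0.40 (adjusted p = 0.0265) with columns and -0.40 (standard error 0.25) with Trizol. The exact permutation p was 0.000135 over all mice, 0.000257 with columns and 0.171 with Trizol.

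Kdr encodes VEGF receptor 2, through which vascular endothelial growth factor drives endothelial growth. With columns, its signal lay between 255 and 345 with a median of 294 in handled mice, against 270 to 545 with a median of 360 in non-handled mice. With Trizol, it was 239, 254, 320 and 345 in handled mice, against 376, 403, 498 and 523 in non-handled mice. Every handled mouse lay below every non-handled mouse with Trizol, as for 3.47% of all genes by the brightest probe set. With columns all 7 handled mice lay below the non-handled median, as they did for Cdh5, Emcn and Cspg4, which did not pass. Kdr fell by 0.44 over all mice (standard error 0.12, adjusted p = 0.0148), a fold of 0.736, with an exact permutation p of 0.000679, and of 0.0223 with columns and 0.0286 with Trizol.

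Tie1 encodes an orphan receptor that forms complexes with the angiopoietin receptor Tek. Its probe set was dim. With columns, signal lay between 2.53 and 30.7 with a median of 8.64 in handled mice, against 12.8 to 82.4 with a median of 39.3 in non-handled mice. With Trizol, it was 4.29, 14.3, 20.97 and 69.6 in handled mice, against 15.8, 25.4, 43.1 and 45.0 in non-handled mice. All handled mice with columns were below the non-handled median, as also for Cdh5, Emcn and Cspg4, which did not pass. The highest mouse of the Trizol group was a handled one. Tie1 fell by 1.62 over all mice (standard error 0.49, adjusted p = 0.0275) and it fell by 2.03 with columns (adjusted p = 0.0237), and the exact permutation p was 0.00304 over all mice and 0.457 with Trizol. With an offset of 32 added to signal before the log, which damps dim values, the difference over all mice was -0.52 with an adjusted p of 0.0580.

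Foxq1 encodes a forkhead transcription factor enriched in brain endothelium. Its brightest probe set lay between 117.6 and 185.7 with a median of 155 in handled mice with columns, against 149 to 352 with a median of 191 in non-handled mice. With Trizol, it was 84.4, 120, 158 and 166 in handled mice, against 137, 161, 214 and 260 in non-handled mice. The handled medians were lower under both methods and the groups overlapped. Foxq1 fell by 0.53 over all mice (standard error 0.16, adjusted p = 0.0328, exact permutation p = 0.00156). The gene's other probe set differed by 0.08 (standard error 0.34, adjusted p = 0.902), and with the mean of both probe sets the difference was -0.22 with an adjusted p of 0.459.

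The number of genes that fell depended on how arrays were put on a common scale. With quantile normalization 2 of the 29 fell, Cldn5 and Kdr, and with arrays set to the same mean and variance 1 fell, Cldn5, while the probe sets over the array divided into 1319 higher and 1595 lower with quantile normalization, against 1614 higher and 3571 lower in signal as deposited. The median difference of all probe sets was then 0.02 with quantile normalization. The 5 genes kept a negative difference under every alternative run. With each mouse left out in turn, Cldn5, Esam and Kdr fell in all 25 fits, Tie1 missed the threshold without H109, H110 or H117, and Foxq1 missed it without H108, H116, H117, NH144, NH166 or NH170. Without H117 the count was 3, and it was 4 or 5 without any other mouse.

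Upstream sequences are shown for Cldn5, Kdr and Tie1, 3 of the genes that fell, as the 250 bases before a start of transcription that RefSeq places on GRCm38.p6, printed 5′ to 3′ in the direction of the gene. Capitals mark matches on either strand to the ETS core letters CGGAAG or AGGAAG, bound by the ETS factors that act in endothelium, and to the GC box GGGCGG, bound by Sp1. The ETS and GC box letters can overlap, but did not in these 3 stretches. The first lies on the plus strand at chr16:18776597-18776846, the second on the minus strand at chr5:75978456-75978705 and the third on the minus strand at chr4:118489850-118490099. The starts of Cldn5 and Tie1 are the outermost ones of the gene, whereas that of Kdr lies 617 bases inside the gene's annotated 5′ end.
Cldn5: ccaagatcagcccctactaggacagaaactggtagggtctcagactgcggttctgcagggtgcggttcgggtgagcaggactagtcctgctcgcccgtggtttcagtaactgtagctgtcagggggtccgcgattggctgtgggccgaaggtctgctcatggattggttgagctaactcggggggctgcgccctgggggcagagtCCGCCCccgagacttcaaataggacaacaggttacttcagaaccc
Kdr: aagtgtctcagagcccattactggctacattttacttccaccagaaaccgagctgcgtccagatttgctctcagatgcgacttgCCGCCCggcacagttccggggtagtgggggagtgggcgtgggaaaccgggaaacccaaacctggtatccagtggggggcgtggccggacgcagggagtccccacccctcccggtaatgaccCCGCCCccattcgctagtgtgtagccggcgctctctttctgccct
Tie1: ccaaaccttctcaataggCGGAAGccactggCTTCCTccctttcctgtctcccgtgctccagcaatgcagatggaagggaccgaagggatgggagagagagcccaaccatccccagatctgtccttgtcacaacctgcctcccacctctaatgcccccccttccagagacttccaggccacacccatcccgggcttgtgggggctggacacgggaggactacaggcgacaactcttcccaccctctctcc
The Tie1 stretch held 2 ETS matches and 0 GC boxes, the Kdr stretch 0 and 2, and the Cldn5 stretch 0 and 1. Upstream stretches were given for 19 of the measured genes, of which 8 held an ETS match and 9 a GC box. Of all 32851 stretches of this length, 39.2% held an ETS match and 32.7% a GC box.

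Among the other junction and adhesion genes, Ocln, Pecam1 and Cdh5 did not pass the test. Ocln, which encodes the tight junction protein occludin, differed by -0.04 (standard error 0.23), with signal from 37.1 to 214 in handled and from 88.2 to 228 in non-handled mice. Pecam1, a contact molecule of endothelium, differed by -0.96 (standard error 0.42, adjusted p = 0.132), and Cdh5, which encodes VE-cadherin of the adherens junction, by -0.48 (standard error 0.35). All 5 junction genes had negative differences, and the 2 that fell were those with the smallest standard errors.

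Of the 5 receptor genes Kdr and Tie1 fell, and the other 3 did not pass the test. Flt1, which encodes VEGF receptor 1, differed by -0.09 (standard error 0.14), by 0.09 with columns and by -0.44 with Trizol. Tek, the angiopoietin receptor Tie2, differed by 0.25 (standard error 0.14, adjusted p = 0.269), and with columns by 0.42 (adjusted p = 0.0537) with signal from 388 to 559 in handled mice, against 246 to 473 in non-handled mice. Eng, which encodes endoglin, a coreceptor for TGF-beta ligands, differed by 0.43 (standard error 0.19, adjusted p = 0.133). The differences of Tek and Eng were positive and those of Kdr and Tie1 negative.

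None of the barrier transporter genes passed the test by the brightest probe set. Slco1c1, the carrier of thyroid hormone, came nearest, with signal from 3647 to 5200 and a median of 4737 in handled mice with columns, against 1308 to 4655 and a median of 3605 in non-handled mice. With Trizol its signal was 3758, 3906, 3914 and 4265 in handled mice, against 3546, 3822, 4003 and 4024 in non-handled mice, so that the higher median stood in the column group. The difference was 0.30 over all mice (standard error 0.13, adjusted p = 0.116). Slc2a1, the glucose transporter Glut1, differed by 0.08 (standard error 0.10), Abcb1a, the efflux pump P-glycoprotein, by 0.03 (standard error 0.12) and Slco1a4, an organic anion carrier, by less than 0.01 in size (standard error 0.10). The 3 probe sets of Slc2a1 differed with columns by 0.10, 0.35 and 0.42, and the last of them, not the brightest, rose (adjusted p = 0.0204).

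The remaining endothelial genes were Vwf, Emcn, Itm2a, Bsg and Sox17, and none passed the test. Vwf, the clotting protein von Willebrand factor, lay between 49.5 and 196 with a median of 83.7 in handled mice, against 8.79 to 259 with a median of 70.9 in non-handled mice, a difference of 0.57 (standard error 0.40, adjusted p = 0.365). Emcn, the sialomucin endomucin, differed by -0.32 (standard error 0.24) over all mice and by -0.60 with columns (adjusted p = 0.0522). Itm2a differed by 0.01 (standard error 0.10), Bsg, the immunoglobulin family protein basigin, by -0.11 (standard error 0.10) and Sox17, a transcription factor of arterial endothelium, by -0.04 (standard error 0.13).

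None of the 9 mural genes passed the test. Of the pericyte genes, Anpep, the surface enzyme aminopeptidase N, had the smallest p with a dim signal of 3.40 to 44.8 in handled mice, against 6.25 to 64.5 in non-handled mice, and a difference of -1.03 (standard error 0.45, adjusted p = 0.131). Cspg4, which encodes the NG2 proteoglycan, differed by -0.35 (standard error 0.16, adjusted p = 0.134), and Abcc9, a subunit of a potassium channel, by -0.25 (standard error 0.12, adjusted p = 0.185). Rgs5, a regulator of G protein signalling, differed by 0.06 (standard error 0.08), Pdgfrb, the receptor for platelet-derived growth factor, by -0.03 (standard error 0.18) and Vtn, the matrix protein vitronectin, by -0.13 (standard error 0.16). Of the smooth muscle genes, Acta2, the alpha actin of smooth muscle, lay between 307 and 1458 with a median of 748 in handled mice, against 363 to 1493 with a median of 897 in non-handled mice, a difference of -0.21 (standard error 0.13, adjusted p = 0.305). Tagln, an actin-binding protein, was dim and differed by 0.35 (standard error 0.47), and Myh11, the myosin heavy chain of smooth muscle, was dim and differed by 0.61 (standard error 0.44).

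**Figure D2:**
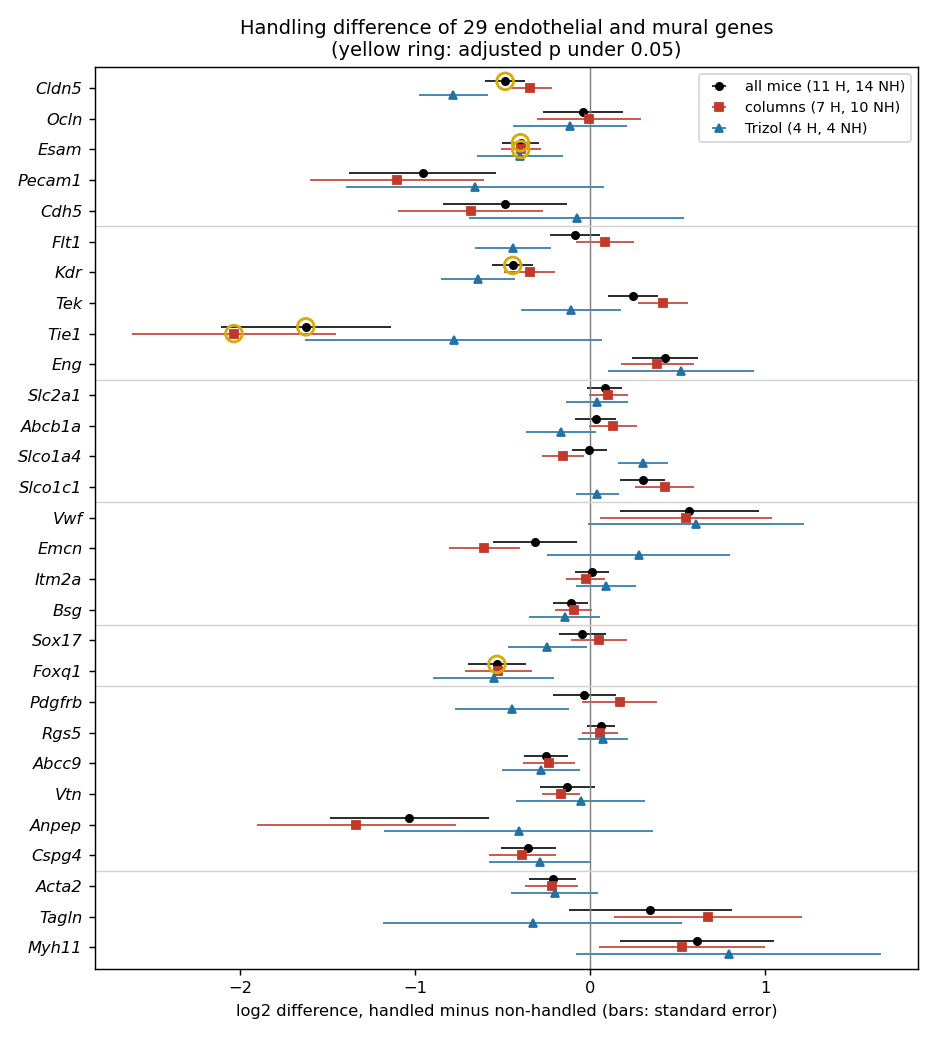
Log2 difference of each of the 29 genes, handled minus non-handled (horizontal, bars are standard errors), over all mice and within each extraction method, with lines between role groups and a yellow ring where adjusted p was under 0.05. The 5 rings over all mice are on Cldn5, Esam, Kdr, Tie1 and Foxq1, all left of 0, and the mural genes at the bottom carry none.

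Within extraction methods fewer genes passed. With columns, 2 of the 29 fell, Tie1 and Esam, and 0 rose by the brightest probe set, where 4.36% of all probe sets rose and 7.65% fell, and by gene 5.53% and 9.42%. The 2 became 0 without mouse H109 and 1 without H110 or H116, and 4 without NH142, NH162 or NH163, Tek passing as higher in 2 of these. With Trizol, 0 of the 29 passed, as did 0% of all probe sets, and with no adjustment 2 of the 29 (Cldn5 and Kdr) had p under 0.05, beside 6.37% of all probe sets. The handling difference itself differed between extraction methods for 0 of the 29 genes (interaction term), beside 0.0511% of all probe sets, and 1 of the 29 had an unadjusted interaction p under 0.05, beside 7.47% of all probe sets. This was Slco1a4, with differences of -0.15 with columns and 0.30 with Trizol. The differences within columns and within Trizol had the same sign for each of the 5 genes that fell. The choice of these genes by the fit over all mice, which combines both methods, makes this likely.

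Other genes of the vessel wall and its signals were taken from 6 further lists. Of their 99 measured genes 7 passed the test, or 7.07%, a smaller share than the 14.3% of all genes that passed by the brightest probe set. Of 34 genes for vascular ligands and signalling, 3 fell and 0 rose: Vegfa, the ligand of Kdr, by 0.48 (standard error 0.14, adjusted p = 0.0251), Dll4, an endothelial Notch ligand, by 1.14 (standard error 0.28, adjusted p = 0.00742) and Smad6, an inhibitor of BMP signalling, by 1.05 (standard error 0.31, adjusted p = 0.0280). Of 15 endothelial regulators, Sox18 fell by 0.75 (standard error 0.24, adjusted p = 0.0368) and Gata2 by 0.54 (standard error 0.16, adjusted p = 0.0252). Of 14 basement membrane genes, Hspg2, which encodes perlecan, fell by 0.51 (standard error 0.13, adjusted p = 0.00968), and of 13 other junction genes, Jam2, a junctional adhesion molecule, rose by 0.32 (standard error 0.09, adjusted p = 0.0261). None of 11 other barrier transporters passed with limma, where 1 had an unadjusted p under 0.05, and none of 12 other mural genes, where 3 had. These lists were drawn up with earlier results of these data known.

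Of 65 measured markers of other cells 9 passed the test, or 13.8%, near the 14.3% of all genes. Of 9 markers of the choroid plexus, which borders the hippocampus, Clic6 fell by 0.63 (adjusted p = 0.0154) and Folr1 by 0.86 (adjusted p = 0.0232), and all 9 had negative differences, beside 63.5% of all genes. The dimmest were Otx2, Slc4a5, Kcne2 and Sostdc1, with mean signals from 12.2 to 35.8, and Slc4a5 and Sostdc1 differed by only -0.04. Negative differences numbered 7 of the 9 with columns and 6 with Trizol. Their summed signal ran from 543 to 715 in handled mice, against 616 to 3419 in non-handled mice, the highest being NH147 with Trizol. Among column arrays the median sum was 638 with handling, against 867 for the non-handled group. Without NH147 the same 5 vascular genes fell, Cldn5 by 0.48 and Kdr by 0.42. Leaving out this Trizol mouse does not change the sums of the column arrays, so it does not test the part of choroid plexus tissue. Of 11 genes listed as markers of meninges and perivascular fibroblasts Igf2 fell and Pdgfra rose. Mean signal was 1729 for Pdgfra, 278 for Igf2 and 5573 for Dcn of that list, against 86.1 to 199 for its collagen genes. Which cells gave the Pdgfra signal was not tested. Of 10 microglial markers C1qc fell and P2ry12 rose. Of 7 blood cell markers none passed with limma and 1 had an unadjusted p under 0.05. The summed signal of the blood markers ran from 373 to 692 in handled mice and from 435 to 903 in non-handled mice. Of 9 neuronal markers Camk2a fell, of 10 astrocyte markers Aqp4, the water channel of endfeet on vessels, rose by 0.32 (adjusted p = 0.0195), and of 9 oligodendrocyte markers Ermn rose. The part of these cells in the vascular differences was not tested.

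With the extraction method 11 of the 29 vascular genes differed. In RNA from columns 10 of the 29 genes were higher and 1 was lower than in RNA from Trizol, with 16.5% of all probe sets higher and 23.3% lower. By the brightest probe set 23.7% of all genes were higher and 17.7% lower. Among genes in the upper 50% of mean signal 36% were higher and 22.7% lower. Of the 29 vascular genes 22 lay in that upper 50%, and all 11 that differed were among these 22. The 10 were Bsg, Vtn, Slc2a1, Pdgfrb, Cldn5, Acta2, Eng, Esam, Itm2a and Rgs5, and the 1 was Slco1a4. Median differences were 0.21 over the 29 genes, -0.02 over the brightest probe sets of all genes and 0.11 over those in the upper 50% of mean signal. Over all probe sets the median was -0.16, and with quantile normalization the calls over the array turned to 10756 higher and 8091 lower, with a median of 0.16. None of the 11 changed sign with quantile normalization or equal mean and variance.

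**Figure D3:**
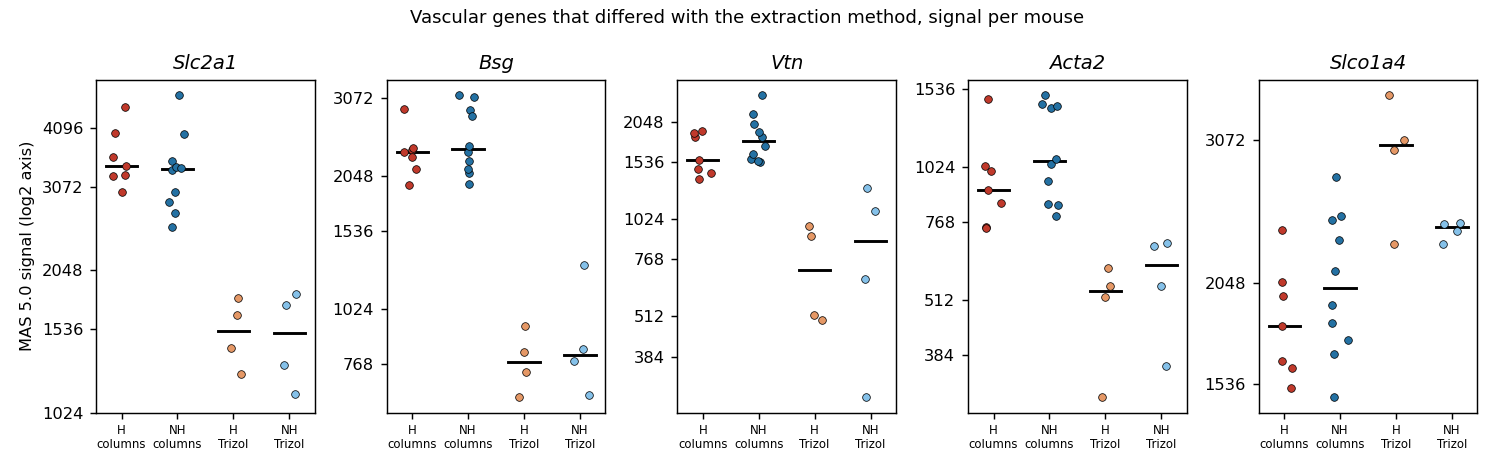
MAS 5.0 signal (vertical, log2 axis) of 5 vascular genes that differed with the extraction method, 1 point per mouse and a line at each group's median, for handled (H) and non-handled (NH) mice. For Slc2a1, Bsg, Vtn and Acta2 all 17 mice with columns lie above all 8 mice with Trizol, and Slco1a4 runs the other way with overlap.

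Bsg had the largest of these differences, with signal from 1952 to 3131 with columns and from 646 to 1288 with Trizol, a log2 difference of 1.54 (standard error 0.10, adjusted p = 4.18e-14). Slc2a1 ran from 2535 to 4827 with columns and from 1123 to 1828 with Trizol (1.20, standard error 0.10). Vtn ran from 1361 to 2488 with columns and from 287 to 1278 with Trizol (1.29, standard error 0.17), and Acta2 from 747 to 1493 with columns and from 307 to 690 with Trizol (0.98, standard error 0.14). For these 4 genes all 17 mice with columns were above all 8 with Trizol, as for 5.18% of all genes and 8.19% of those in the upper 50% of mean signal. All 3 probe sets of Slc2a1 and both of Vtn were higher with columns, while the other 2 probe sets of Acta2, both dim, had differences of -0.91 and -1.01 that did not pass. The other probe sets of Rgs5 differed by -0.34, 0.13 and -0.19. Those of Pdgfrb and Eng, both dim, differed by -0.22 and 0.75, and none of these passed. Over the other settings the difference of Itm2a ran from 0.045 to 0.53. Slco1a4 ran from 1478 to 2769 with columns and from 2287 to 3493 with Trizol (-0.43, standard error 0.11, adjusted p = 0.00117). Of the 4 barrier transporters, Slc2a1 was thus higher and Slco1a4 lower with columns, while Abcb1a (-0.19, adjusted p = 0.254) and Slco1c1 (-0.02, adjusted p = 0.925) did not pass. Higher with columns than with Trizol were 8 of 9 neuronal, 8 of 10 astrocyte, 8 of 9 oligodendrocyte and 7 of 10 microglial markers. Of these 4 sets of markers 0 genes were lower. Over all 65 markers of other cells 38 were higher and 1 was lower, beside 23.7% and 17.7% of all genes by the brightest probe set. Of 9 choroid plexus markers 0 passed. Of the 99 genes of the further vascular lists 31 were higher and 15 lower. Among these, 1 of 14 basement membrane genes was higher and 6 were lower.

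Covariation between mice was weak. It was measured on deviations of log2 signal from the mean of each mouse's own handling and extraction group, and is a description over genes read from the same 25 arrays. The median Pearson r of the 406 pairs among the 29 genes was 0.110 with 268 pairs positive, beside a median of 0.006 over all pairs of genes on the array. It was 0.127 among the 20 endothelial genes, 0.298 among the 5 receptor genes, -0.034 among the 6 pericyte genes and 0.136 among the 3 smooth muscle genes. Over the 17 mice with columns the median of the 406 pairs was 0.072, and over the 8 with Trizol 0.269. Leaving out each mouse in turn gave medians from 0.081 to 0.139.

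**Figure D4:**
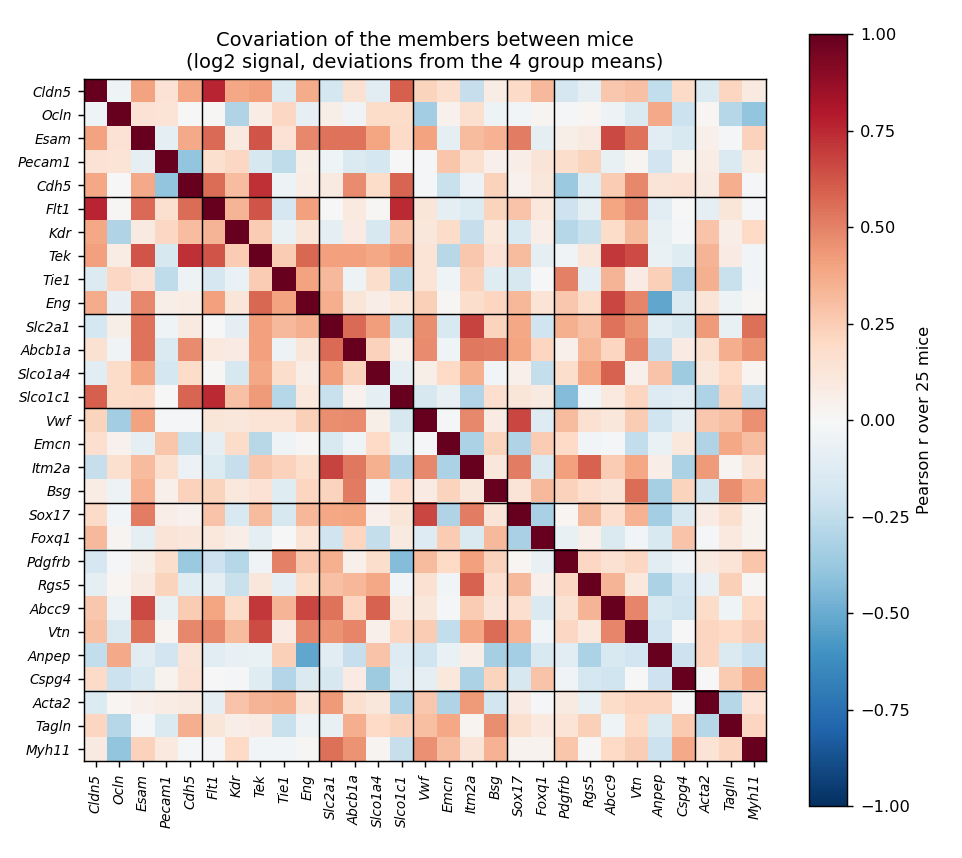
Pearson r over 25 mice for each pair of the 29 genes (colour, from -1 in blue to 1 in red), computed on deviations of log2 signal from the 4 group means, with lines between role groups. Red cells join Cldn5, Flt1, Cdh5, Tek and Slco1c1, and Slc2a1 with Itm2a and Abcb1a. The pericyte genes Abcc9 and Vtn are also red with Tek (0.703 and 0.649) and with Esam (0.660 and 0.547). Among themselves the pericyte genes show no common colour.

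The strongest pair was Cldn5 and Flt1 (r = 0.762 over 25 mice, 0.782 with columns and 0.722 with Trizol). Flt1 with Slco1c1 (0.747), Cdh5 with Tek (0.727), Tek with Abcc9 (0.703), Slc2a1 with Itm2a (0.676) and Vwf with Sox17 (0.670) came next. Several of these pairs share an extreme mouse, NH162. Among non-handled mice with columns it was lowest for Cldn5 (994), Flt1 (278), Slco1c1 (1308), Cdh5 (17.8) and Tek (246). It was highest there for Slc2a1 (4827) and Itm2a (5994). The r of these pairs without NH162 is not given here. The most negative pair was Eng and Anpep (r = -0.516). Of the 16 endothelial genes in the upper 50% of mean signal, Esam ranked 1 and Tek 4 of 11492 genes by mean r with the others of that set (0.333 and 0.304), Flt1 ranked 51 and Abcb1a 99, while Kdr ranked 4218, Ocln 5815, Foxq1 5586 and Emcn 7083. The genes outside the list most like the 16, by mean r over 25 mice, were Xpnpep1 (0.334), Rab7 (0.328), Emc10 (0.320), Ubtf (0.316) and Slc1a4 (0.312).

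In 11 pairs picked for a shared cell type or complex, no correlation passed after adjustment. Flt1 and Kdr, the VEGF receptors, had r = 0.340 and rho = 0.158 (permutation p = 0.181 and 0.490, both adjusted p 0.483 or above), and without the 2 mice farthest from the median of Flt1 r was 0.028. Tek and Tie1 had r = 0.253 and rho = 0.248 (permutation p = 0.157 and 0.222), with -0.072 within columns, 0.674 within Trizol and 0.169 without the 2 farthest mice. Pecam1 and Cdh5 had r = -0.397 and rho = -0.432 (permutation p = 0.0568 and 0.0550, adjusted p = 0.483 and 0.486), with -0.369 within columns, -0.458 within Trizol and -0.291 without the 2 farthest mice. Cldn5 and Ocln, which meet in tight junctions, had r = -0.044 and rho = -0.014 (permutation p = 0.825 and 0.948), and r was -0.117 without the 2 farthest mice. Pdgfrb and Rgs5, which mark pericytes, had r = 0.209 and rho = 0.105 (permutation p = 0.343 and 0.634), and r was -0.113 without the 2 farthest mice. The pairs among Acta2, Tagln and Myh11 ran from -0.286 to 0.214 with adjusted p of 0.483 or above, and without the 2 farthest mice from -0.107 to 0.231. Slco1a4 and Abcb1a had r = 0.234 and rho = 0.226 (permutation p = 0.220 and 0.257), and r was 0.499 without the 2 farthest mice, 0.345 within columns and -0.114 within Trizol. Vtn and Rgs5 had r = 0.107 and rho = 0.302 (permutation p = 0.607 and 0.155), and r was 0.445 without the 2 farthest mice. Cldn5 and Pecam1 had r = 0.148, and 0.132 without them.

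**Figure D5:**
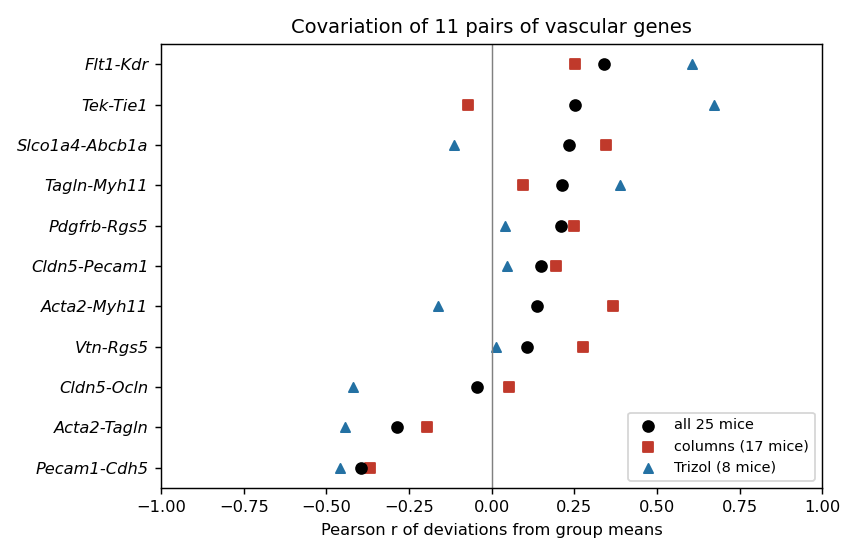
Pearson r (horizontal) of 11 pairs of vascular genes over all 25 mice, over the 17 with columns and over the 8 with Trizol. The values over all mice run from -0.397 for Pecam1 and Cdh5 to 0.340 for Flt1 and Kdr, and 0 of the 11 passed after adjustment.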

How the data were processed

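The authors deposited MAS 5.0 signal, a linear intensity per probe set made with Affymetrix Expression Console, in which each array is scaled by a single factor and distributions are not equalized. The table had 45101 probe sets for 25 arrays, and 64 control probe sets were left out. Genes were named from the platform annotation. No normalization was added. Two-sided tests used limma (version 3.58.1, R 4.3.3) on log2 signal: handling and extraction method entered as terms under a trended prior, and further fits covered each extraction method alone and the interaction. The 5 genes that passed were also tested by exact permutation of handling within extraction methods, and pairs by 100000 permutations. Tables were handled with pandas 2.3.3 and numpy 2.4.6, permutations with scipy 1.17.1 (Python 3.11.15) and figures with matplotlib 3.10.9. The number of arrays limits the precision.

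Every member was named, with values by group for those that passed the test and for the member of each role group with the smallest p, and probe sets other than the brightest where they passed. Values for other genes were added after they were seen. Members and lists were chosen with earlier results of these data known. Other settings were an offset of 32 before the log, quantile normalization, equal mean and variance of the arrays, the upper 50% of mean signal, no trended prior, array weights, no extraction term, RNA quality covariates, the mean of a gene's probe sets, and each mouse left out.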

Additional observations from a re-analysis of the deposited data

Results flagged for a closer look

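Each of the 29 genes was looked at in its 4 groups of mice, and in 7 of these sets of values 1 mouse stood apart from the others by Dixon's criterion, which chance gives in about 1 in 20 sets. Among handled mice with columns, Cldn5 was 1738 in H117, where the other 6 lay between 986 and 1256. Ocln was 37.1 in H109, against 150 to 208 in the others, and Anpep was 35.9 in H118, against 3.40 to 8.20. Among non-handled mice with columns, Cspg4 was 110 in NH155, against 182 to 252 in the others.

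Of the 7, 3 belonged to mouse NH162: Slco1c1 was 1308, against 3025 to 4655 in the other non-handled mice with columns, Cdh5 was 17.8, against 59.9 to 226, and Itm2a was 5994, against 3415 to 4576. The same array had the highest log2 ratio of 3' to 5' signal of the actin control probe sets, 3.24, against 1.54 to 2.12 in the other 24. Without NH162 the same 5 genes fell with handling over all mice, Cldn5 by 0.54 and Kdr by 0.47, and with columns 4 of the 29 passed, Slco1c1 among them.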

How the results depend on the processing

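Over all mice 5 of the 29 genes fell, and 2 did with quantile normalization, 1 with equal mean and variance, 2 with no extraction term (Kdr and Tie1) and 3 with RNA quality covariates (Cldn5, Esam and Kdr), while the other 5 settings gave 4 or 5 and leaving out each mouse gave 3 to 5. Of all 45037 probe sets 1319 rose and 1595 fell with quantile normalization, and 1726 and 1850 with equal mean and variance. With no extraction term 459 rose and 1842 fell, and with RNA quality covariates 1324 and 2621. With columns 2 fell, and 1 passed with quantile normalization (Cldn5, lower), 1 with equal mean and variance (Tek, higher), 4 in the upper 50% of mean signal, 5 with array weights and 4 with the mean of a gene's probe sets, while leaving out each mouse gave 0 to 4. Tek passed as higher in each of these last 3 settings. With Trizol and for the interaction the count was 0 under every alternative run. For columns against Trizol the 11 calls became 8 to 15 over the settings and 11 or 12 with each mouse left out, and with the mean of all probe sets the difference of Rgs5 was -0.0066 and that of Acta2 -0.32, neither past the threshold. The median r of the 406 pairs was 0.109 to 0.136 over the settings. No paired analysis was possible because handled and non-handled mice were separate animals and no label pairs them. No mouse had a repeat array, and the signals of Tie1, Anpep and Tagln were dim.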
